A study of Rattus norvegicus with 16 samples.

Results

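The glycogen set comprised genes for the synthesis and breakdown of glycogen and for the control of both: Pygm, Gys1, Phka1, Phkg1, Pgm1, Ppp1r1a, Gsk3a, Gsk3b, Gaa and Prkaa2. Its members were the probe sets whose only gene symbol in the platform's probe annotation was one of these 10 genes, each probe set taken on its own. The rule found 16 of the 8799 probe sets, for 9 of the 10 genes, out of 4737 genes that have such a probe set on the array. Gys1, muscle glycogen synthase, was not analysed here. Each of the 16 probe sets passed the filter on low values, 1 of them (Phkg1 M98826mRNA_at) only through TA arrays. Probe sets of 1 gene read RNA of the same gene and are not independent of each other.

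Total RNA of rat skeletal muscle was hybridised to 16 arrays of short oligonucleotide probes, 1 colour each. The groups were EOM, the extraocular muscles that move the eye (4 arrays, numbered 1 to 4), TA_6h, a muscle labelled TA and collected at 6 hours (8 arrays), and TA_1h, the same muscle collected at 1 hour (4 arrays). What the hours are counted from is not in the labels, nor is a collection time for EOM, nor any strain, age, genotype or treatment. Within a group, log2 values of TA arrays that share a number were averaged to 1 sample, which gave 4 EOM, 4 TA_6h and 2 TA_1h samples; joining the TA_6h arrays 1 and 2, which carry no letter, with arrays 1b and 2b was an inference. Whether numbers stand for different animals is not labelled, and the p-values therefore reflect only how these numbered samples vary, which may be technical variation.

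Muscle stores glucose as glycogen, a branched polymer. Glycogen synthase lengthens its chains, glycogen phosphorylase shortens them, and phosphorylation turns the synthase off and the phosphorylase on, so that adrenaline and contraction favour breakdown while insulin favours storage. Fast glycolytic fibres draw on this store during contraction, and inherited loss of several of these enzymes causes glycogen storage diseases of muscle.

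Before any comparison, the arrays themselves differed in 2 ways. In the EOM columns 24.3% of the deposited linear intensities lay below 0, while no TA value did (the lowest was 0.0219), so in each EOM to TA difference muscle and probe summary cannot be told apart. Values under a floor of 56.5, the 25th percentile of all intensities, were raised to it. The ratio of the middle to the 3′ control probe set for beta-actin was 0.891 to 0.978 on EOM arrays, but it was 0.146 to 0.39 on 5 TA arrays (3a, 3b, 4a and 4b of TA_6h and 2b of TA_1h) and 0.815 to 1.28 on the other 7 TA arrays. These 5 are called low-ratio arrays below, and each result is given with and without them where they matter. Myh13, the myosin of extraocular muscle, read 7213 to 8013 on EOM arrays, 41.9 to 414.9 on TA_6h arrays and 142 to 436 on TA_1h arrays. Of the general muscle markers, Des, Tnnt3 and Tnni2 lay above the floor on 12 of 12 TA arrays and Acta1 on 11, but Ckm, muscle creatine kinase, on only 8, and all 5 did so on every EOM array.

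Most differences in the glycogen set ran one way: intensities were lower in EOM than in TA. Against TA_6h, 7 of the 16 probe sets, from 5 of the 9 genes, were called lower in EOM (limma, adjusted p under 0.05) and 0 higher, where 25.3% of the 7640 probe sets tested were called lower and 21.9% higher. Against TA_1h, 8 were called lower, from the same number of genes, and 0 higher, where 19.5% of all tested were called lower and 17.7% higher. The genes were Ppp1r1a, Gaa, Gsk3b, Pgm1 and Pygm. The median log2 difference over the 16 probe sets was -0.91 against TA_6h and -1.20 against TA_1h, beside -0.11 and -0.09 over all probe sets tested. Both comparisons use the same EOM arrays. No probe set of the set had a called difference of the opposite sign; at an unadjusted p under 0.05, 0 of 16 were higher in EOM in either comparison.

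**Figure D1:**
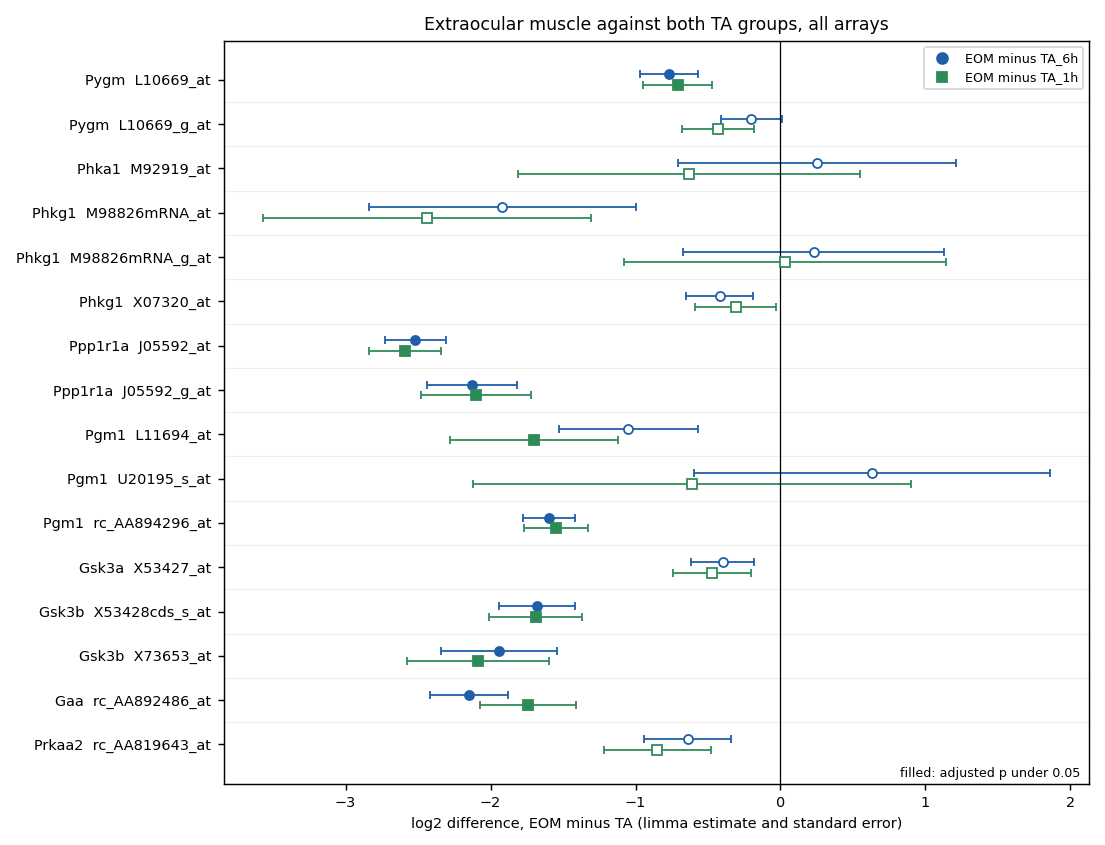
Log2 difference of EOM from TA_6h (circles) and from TA_1h (squares) for each of the 16 glycogen probe sets, as the limma estimate with its standard error; filled symbols have an adjusted p under 0.05. The filled symbols all lie left of 0, from -2.59 for Ppp1r1a J05592_at to -0.71 for Pygm L10669_at, and the widest error bars belong to Phka1, the M98826 probe sets of Phkg1, and Pgm1 U20195_s_at.

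Ranges of single arrays need no model. For 7 of the 16 probe sets each EOM array read below each of the 12 TA arrays, where 21.8% of all tested probe sets did so: both Ppp1r1a probe sets, both Gsk3b probe sets, Gaa, Pgm1 rc_AA894296_at and Phkg1 M98826mRNA_at, for the last of which 4 TA arrays were also under the floor, where values have no order. Set against the 7 TA arrays with a usual ratio, the count was 13 of 16, beside 27.8% of all tested. Set against the 5 low-ratio arrays, EOM lay below for 10 probe sets (27.9% of all tested did) and above for 3 (22.8% of all tested did). The 13 and the 10 both take in Phkg1 M98826mRNA_at, under the floor on every EOM array and tested only through TA arrays. Of the 5 low-ratio arrays only 1 was above the floor for it. The shares of all tested rest on deposited values, which lay below 0 only in EOM.

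**Figure D2:**
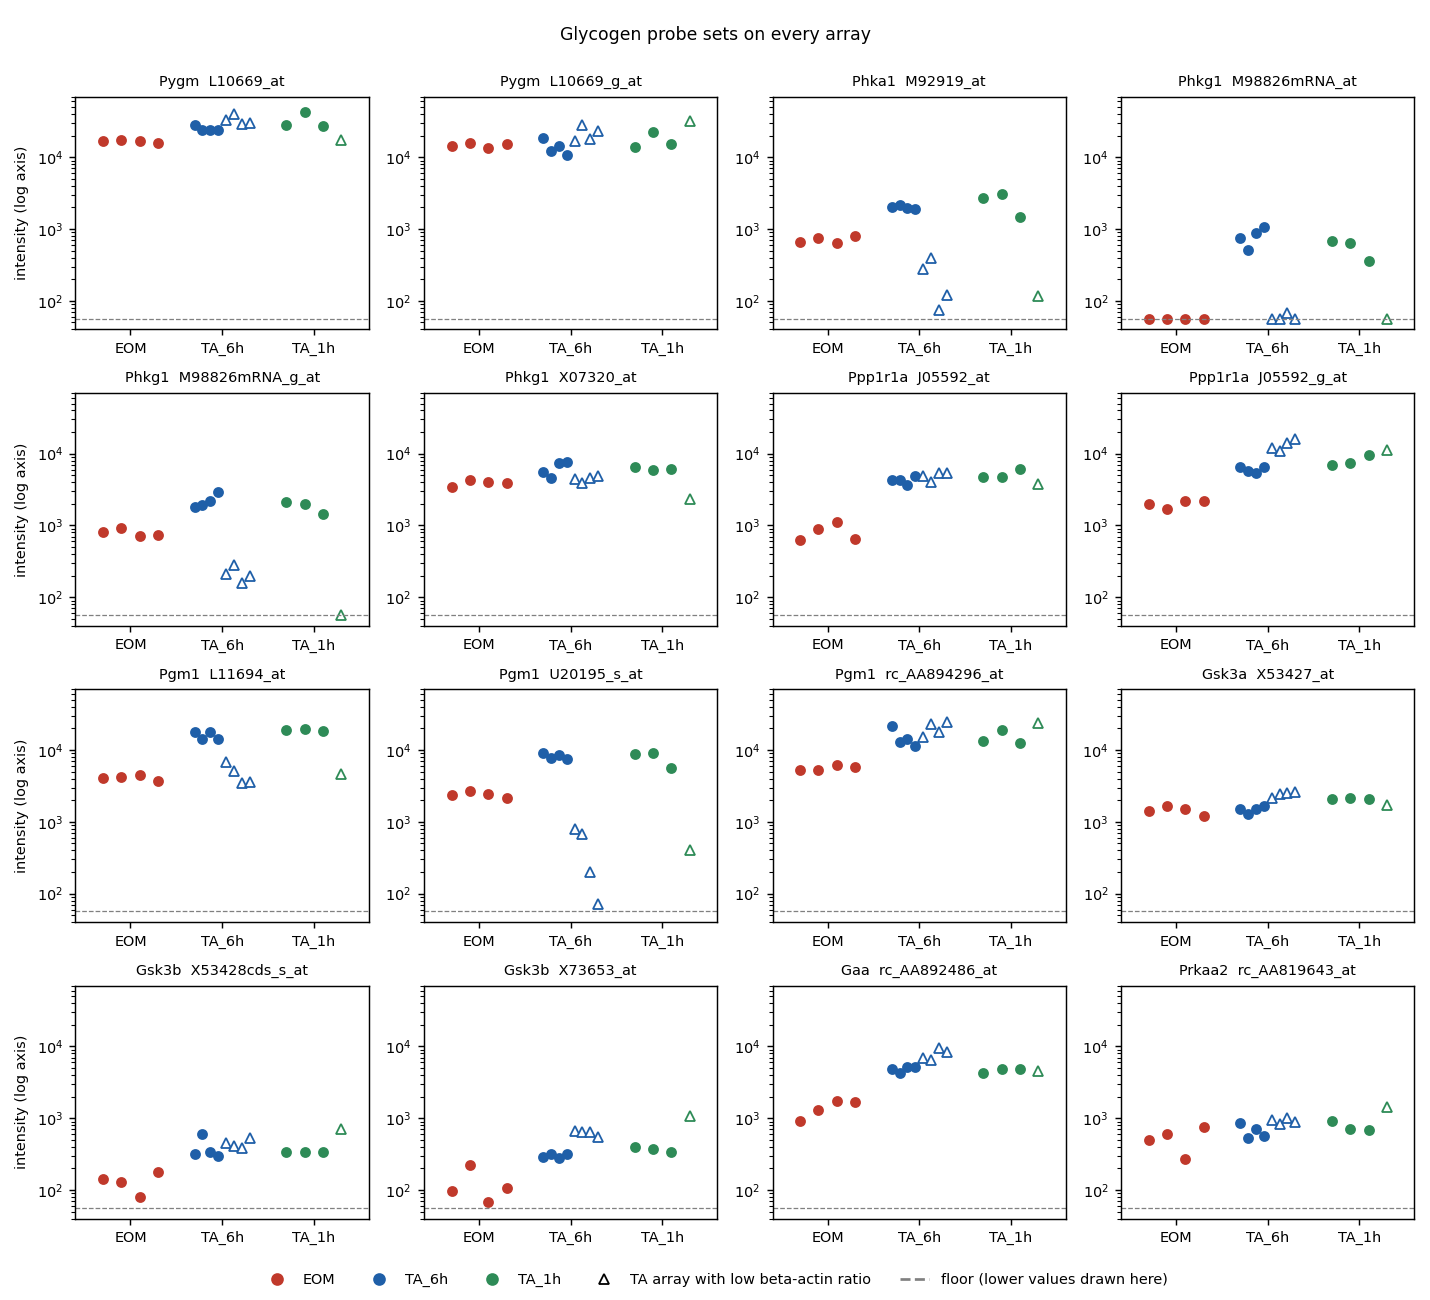
Intensity on every array (log axis) for the 16 glycogen probe sets, 1 panel each, with EOM left of TA_6h and TA_1h; open triangles are the 5 TA arrays with a low beta-actin ratio, and the dashed line is the floor of 56.5, at which lower values are drawn. In the panels of Phka1, Phkg1 M98826mRNA_at and M98826mRNA_g_at, and Pgm1 L11694_at and U20195_s_at the triangles lie far below the filled TA points, while in those of Ppp1r1a, Gsk3b, Gaa and Pgm1 rc_AA894296_at every EOM point lies under every TA point.

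For the genes called lower in EOM against both TA groups that have an entry in RefSeq's promoter table for rat (assembly GRCr8), the 250 bases before the start of the gene are shown, since each has a called probe set. Capitals mark each E-box, CANNTG, the sequence bound by MyoD and other basic helix-loop-helix factors; the motif reads the same on both strands, so 1 search covers them. Pygm lies at chr1:213119555-213119804 on the plus strand, Pgm1 at chr5:119710484-119710733 on the plus strand, Gsk3b at chr11:76153250-76153499 on the minus strand and Gaa at chr10:105028105-105028354 on the plus strand; each sequence runs 5′ to 3′ along its gene.
Pygm: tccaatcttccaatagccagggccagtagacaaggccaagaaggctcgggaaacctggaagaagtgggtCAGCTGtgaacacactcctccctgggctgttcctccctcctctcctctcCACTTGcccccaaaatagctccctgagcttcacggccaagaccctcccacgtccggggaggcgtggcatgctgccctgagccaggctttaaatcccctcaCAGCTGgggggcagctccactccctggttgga
Pgm1: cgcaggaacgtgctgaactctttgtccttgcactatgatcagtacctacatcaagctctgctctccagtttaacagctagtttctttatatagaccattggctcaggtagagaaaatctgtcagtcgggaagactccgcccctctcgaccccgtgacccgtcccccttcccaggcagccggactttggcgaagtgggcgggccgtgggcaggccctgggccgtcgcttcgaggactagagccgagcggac
Gsk3b: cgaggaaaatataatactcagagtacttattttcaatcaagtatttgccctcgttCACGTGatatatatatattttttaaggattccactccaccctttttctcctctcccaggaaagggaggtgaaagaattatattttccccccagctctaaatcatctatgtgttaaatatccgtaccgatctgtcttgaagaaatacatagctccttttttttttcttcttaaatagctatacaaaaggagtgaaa
Gaa: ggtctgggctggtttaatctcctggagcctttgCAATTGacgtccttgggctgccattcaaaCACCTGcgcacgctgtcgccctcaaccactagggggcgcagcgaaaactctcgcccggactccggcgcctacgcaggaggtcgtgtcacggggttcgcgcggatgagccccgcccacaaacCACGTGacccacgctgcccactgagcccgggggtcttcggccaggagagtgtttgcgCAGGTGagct
The Pygm window held 3 E-boxes, at -181, -132 and -32 relative to the gene start, and 2 of them read CAGCTG. The Gaa window held 4, at -217, -188, -67 and -10, and 1 of them read CACGTG, the form bound by factors of the TFEB and USF type. The Gsk3b window held 1, at -195, which also read CACGTG, and the Pgm1 window held 0. Over 33469 promoter windows of this length, 65.5% held a CANNTG, 12% a CAGCTG and 5.59% a CACGTG. These are matches of letters and not sites shown to be bound.

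Pygm encodes muscle glycogen phosphorylase, the enzyme that frees glucose 1-phosphate from glycogen and whose loss causes McArdle disease. Probe set L10669_at read 17046, 17433, 17106 and 15708 on EOM arrays 1 to 4, while TA_6h arrays read from 23706 through a median of 28340.3 to 40239, and TA_1h arrays 28311, 43000.1, 26977 and 17430.3 (1a, 1b, 2a, 2b). EOM lay below TA_6h throughout, and only the low-ratio array 2b of TA_1h reached the EOM range. The log2 difference was -0.77 ± 0.20 (SE; adjusted p = 0.01) from TA_6h and -0.71 ± 0.24 (adjusted p = 0.044) from TA_1h, 1.7-fold and 1.64-fold lower in EOM. The call did not hold under quantile normalization, where the differences were -0.31 (adjusted p = 0.22) and -0.14 (adjusted p = 0.69). The call against TA_1h was also lost when any 1 EOM sample was left out (adjusted p = 0.064 to 0.085) or TA_1h sample 1 was (-0.37, adjusted p = 0.37).

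The second Pygm probe set, L10669_g_at, read 14350.0, 15831, 13576 and 15423 on EOM arrays. TA_6h arrays ran from 10610.2 through a median of 17391 to 28305, and TA_1h arrays read 13902, 22449, 15276 and 32450.2. The groups overlapped, and neither difference passed the test, at -0.20 ± 0.21 from TA_6h (adjusted p = 0.45) and -0.43 ± 0.25 from TA_1h (adjusted p = 0.22). Of the 2 probe sets for phosphorylase, then, 1 was called and 1 was not.

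Phosphorylase kinase switches phosphorylase on when calcium or cyclic AMP rises; Phka1 encodes its muscle regulatory alpha subunit and Phkg1 its muscle catalytic gamma subunit. Phka1 M92919_at read 659, 757, 634 and 801 on EOM arrays. On TA_6h arrays 1, 1b, 2 and 2b it read 2023, 2142, 1952 and 1903, but on the low-ratio arrays 3a, 3b, 4a and 4b only 278, 394.5, 75.4 and 120.6. TA_1h arrays 1a, 1b and 2a read 2681, 3094.5 and 1492, and the low-ratio array 2b read 116. EOM thus lay between the TA arrays of usual ratio and the low-ratio ones, and over all arrays the difference was 0.25 ± 0.96 from TA_6h (adjusted p = 0.85) and -0.63 ± 1.18 from TA_1h (adjusted p = 0.71). Without the low-ratio arrays Phka1 was called lower in EOM, by -1.50 ± 0.26 against TA_6h (adjusted p = 0.0035) and -1.55 ± 0.26 against TA_1h (adjusted p = 0.0028). Against the low-ratio TA_6h arrays alone it was called higher in EOM, by 2.0 ± 0.50 (adjusted p = 0.022).

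Phkg1 had 3 probe sets. M98826mRNA_at read -59.6, -56.0, -51.9 and -175.0 on EOM arrays, all under the floor. TA_6h arrays 1, 1b, 2 and 2b read 754, 509, 887 and 1053, the low-ratio arrays 3a to 4b read 44.6, 52.8, 68.5 and 39.2, and TA_1h arrays read 688, 644, 354 and 20.4. EOM therefore has only an upper bound, the floor, and the probe set was tested only because TA arrays passed it, so its calls are given as no support. Over all arrays the differences of -1.92 ± 0.92 (adjusted p = 0.11) and -2.44 ± 1.13 (adjusted p = 0.12) from TA_6h and TA_1h, with EOM set at the floor, were not called. Without the low-ratio arrays the mean log2 level of TA_6h stood at 9.60 and that of TA_1h at 8.92, against 5.82 for the floor that all EOM arrays lay under.

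M98826mRNA_g_at, by contrast, was well above the floor in EOM, at 815.5, 912, 707.5 and 731. TA_6h arrays 1, 1b, 2 and 2b read 1780.0, 1905, 2183 and 2914, while 3a to 4b read 213, 277.5, 159 and 199.6. TA_1h arrays read 2145, 2007, 1445 and 20.5, the last on array 2b. Here too EOM stood above the low-ratio arrays and below the others, and the difference over all arrays was 0.23 ± 0.90 from TA_6h (adjusted p = 0.85) and 0.03 ± 1.11 from TA_1h (adjusted p = 0.99). It was -1.45 ± 0.21 from TA_6h (adjusted p = 0.0016) without the low-ratio arrays and 1.92 ± 0.18 (adjusted p = 0.00076) against low-ratio TA_6h arrays alone.

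The third Phkg1 probe set, X07320_at, had the smallest standard errors of the 3. EOM arrays read 3462, 4296, 4022 and 3890.2, TA_6h arrays ran from 3960.0 through 4760.4 to 7564, and TA_1h arrays read 6555, 5976.5, 6028 and 2309. The TA_6h and EOM ranges overlapped, and the differences of -0.42 ± 0.23 and -0.31 ± 0.28 from TA_6h and TA_1h were not called (adjusted p = 0.16 and 0.42). X07320_at, without the low-ratio arrays, was called lower in EOM by -0.66 ± 0.18 against TA_6h and -0.65 ± 0.18 against TA_1h (adjusted p = 0.022 in both). Without the low-ratio arrays Phka1, M98826mRNA_g_at and X07320_at were thus each called lower in EOM against both TA groups, and none of them was called over all arrays without a term for those arrays. With such a term, each was called lower against TA_6h (-1.63, -1.77 and -0.84, with adjusted p = 0.0088, 0.0017 and 0.014), and against TA_1h Phka1 was (-1.41, adjusted p = 0.018), but M98826mRNA_g_at (-0.82, adjusted p = 0.065) and X07320_at (-0.47, adjusted p = 0.13) were not.

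Pgm1 encodes phosphoglucomutase 1, which interconverts glucose 1-phosphate and glucose 6-phosphate and so stands between glycogen and glycolysis. Probe set rc_AA894296_at read 5209.5, 5315, 6289.6 and 5799.6 on EOM arrays. TA_6h arrays ran from 11469 through a median of 16691 to 24305, and TA_1h arrays read 13235, 19128, 12439 and 23792. No EOM array came near the lowest TA array. The difference was -1.60 ± 0.18 from TA_6h (adjusted p = 7e-05) and -1.55 ± 0.22 from TA_1h (adjusted p = 0.00045), 3.03-fold and 2.93-fold lower in EOM.

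The other 2 Pgm1 probe sets split by array. L11694_at read 4048, 4248, 4455 and 3733 on EOM arrays, 17916, 14297, 17724 and 14441 on TA_6h arrays 1, 1b, 2 and 2b, and 6863, 5053.5, 3443 and 3627 on arrays 3a to 4b. TA_1h arrays read 18952, 19844, 18278 and, on 2b, 4587.5. The low-ratio arrays thus read close to EOM. The difference over all arrays was -1.05 ± 0.48 from TA_6h (adjusted p = 0.095) and -1.70 ± 0.58 from TA_1h (adjusted p = 0.045), and without the low-ratio arrays -1.96 ± 0.12 (adjusted p = 4.2e-05) and -2.19 ± 0.12 (adjusted p = 2.2e-05). Over all arrays the call against TA_1h was lost when any 1 EOM sample was left out (adjusted p = 0.068 to 0.081), and so it was without TA_1h sample 1 (-1.15, adjusted p = 0.30), TA_1h sample 2 (-2.24, adjusted p = 0.06) or TA_6h sample 3 (-1.70, adjusted p = 0.053).

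U20195_s_at showed the widest split of the set. EOM arrays read 2379, 2733, 2461.5 and 2119.5. TA_6h arrays 1, 1b, 2 and 2b read 9075, 7812.5, 8656 and 7485.5, against 783.5, 671, 203 and 71.9 on arrays 3a to 4b. TA_1h arrays 1a, 1b and 2a read 8719.9, 9122 and 5683, and 2b read 409. The difference from TA_6h was 0.63 ± 1.23 over all arrays (adjusted p = 0.70), -1.77 ± 0.20 without the low-ratio arrays (adjusted p = 0.00053) and 3.03 ± 0.70 against low-ratio arrays alone (adjusted p = 0.017). From TA_1h it was -0.61 ± 1.51 over all arrays (adjusted p = 0.78) and -1.56 ± 0.20 without them (adjusted p = 0.00084). With these arrays left out, each Pgm1 probe set was called lower in EOM against both TA groups.

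Gaa encodes lysosomal acid alpha-glucosidase, which digests glycogen inside lysosomes and is deficient in Pompe disease. Its probe set rc_AA892486_at read 926, 1320.0, 1728 and 1707 on EOM arrays, while TA_6h arrays ran from 4292 through 5796 to 9411 and TA_1h arrays read 4205, 4797, 4867 and 4536. The highest EOM array stood far under the lowest TA array. EOM was 4.43-fold lower than TA_6h, a log2 difference of -2.15 ± 0.27 (adjusted p = 0.00013), and 3.33-fold lower than TA_1h, -1.74 ± 0.33 (adjusted p = 0.0024). Low-ratio and other TA arrays overlapped for Gaa, and the difference from TA_6h was -1.81 ± 0.27 without the low-ratio arrays and -2.48 ± 0.31 against them alone (adjusted p = 0.0016 and 0.0019).

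Ppp1r1a encodes inhibitor 1 of protein phosphatase 1; once protein kinase A phosphorylates it, it blocks the phosphatase that would otherwise reverse phosphorylase activation. Its probe set J05592_at had the largest called difference of the set from each TA group over all arrays. J05592_at read 633, 892, 1099.5 and 643.5 on EOM arrays, TA_6h arrays ran from 3667 through 4606 to 5339, and TA_1h arrays read 4774, 4741, 6125 and 3755. EOM and TA were separated by a wide gap. The log2 difference was -2.52 ± 0.21 from TA_6h (adjusted p = 9.7e-06) and -2.59 ± 0.25 from TA_1h (adjusted p = 4.9e-05), 5.73-fold and 6.01-fold lower in EOM.

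J05592_g_at, the second Ppp1r1a probe set, read 1988, 1704, 2209 and 2176 on EOM arrays. TA_6h arrays 1, 1b, 2 and 2b read 6493, 5662.5, 5422 and 6460.3, and arrays 3a to 4b read 11814, 10849, 13912 and 15894. TA_1h arrays read 7054, 7332, 9486 and 11330.5. Again no EOM array reached a TA array, although here the low-ratio TA arrays read above the others. The difference was -2.13 ± 0.31 from TA_6h (adjusted p = 0.00035) and -2.10 ± 0.38 from TA_1h (adjusted p = 0.0018), and without the low-ratio arrays -1.58 ± 0.17 (adjusted p = 0.00041) and -2.04 ± 0.17 (adjusted p = 0.00012).

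Glycogen synthase kinase 3 phosphorylates and turns off glycogen synthase until insulin signalling stops it; Gsk3a and Gsk3b encode its alpha and beta forms. Gsk3b X53428cds_s_at read 141.5, 129.5, 79.0 and 175.6 on EOM arrays, TA_6h arrays ran from 295 through 397 to 613, and TA_1h arrays read 344, 333, 344 and 707. The second beta probe set, X73653_at, read 98.1, 224.5, 68.3 and 105.5 on EOM arrays, TA_6h arrays ran from 281 through 428 to 656, and TA_1h arrays read 391, 367, 338 and 1082. Both were low, within a few fold of the floor in EOM, and neither overlapped with TA. X53428cds_s_at differed by -1.68 ± 0.26 from TA_6h (adjusted p = 0.00056) and -1.69 ± 0.32 from TA_1h (adjusted p = 0.0025), and X73653_at by -1.94 ± 0.40 (adjusted p = 0.0032) and -2.09 ± 0.49 (adjusted p = 0.0082). For X73653_at the low-ratio TA arrays all read above the other TA arrays, and without them its difference from TA_6h was -1.42 ± 0.43 (adjusted p = 0.032). Its call against TA_1h was lost when TA_1h sample 2 was left out (-1.76, adjusted p = 0.085).

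The alpha form was not called over all arrays. Gsk3a X53427_at read 1415, 1682, 1508 and 1201 on EOM arrays, TA_6h arrays ran from 1299.7 through 1897 to 2578, and TA_1h arrays read 2102.5, 2142.5, 2080.5 and 1692. The EOM and TA_6h ranges overlapped. The difference was -0.40 ± 0.22 from TA_6h (adjusted p = 0.17) and -0.47 ± 0.27 from TA_1h (adjusted p = 0.20). Without the low-ratio arrays it was -0.05 ± 0.16 from TA_6h (adjusted p = 0.82) and -0.54 ± 0.16 from TA_1h (adjusted p = 0.028). Whether the alpha and beta forms differ in their EOM to TA difference was not tested.

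Prkaa2 encodes the alpha 2 catalytic subunit of AMP-activated protein kinase, the energy sensor of muscle, which can bind glycogen and phosphorylate the synthase. Probe set rc_AA819643_at read 493, 599, 271 and 755 on EOM arrays, TA_6h arrays ran from 528 through 839.6 to 1005, and TA_1h arrays read 918, 718, 682 and 1422. EOM arrays 2 and 4 lay inside the TA_6h range. The differences of -0.64 ± 0.30 from TA_6h (adjusted p = 0.11) and -0.85 ± 0.37 from TA_1h (adjusted p = 0.1) were not called. They were -0.39 ± 0.38 and -0.59 ± 0.38 without the low-ratio arrays (adjusted p = 0.44 and 0.25).

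The low-ratio TA arrays thus moved many of the calls. For 5 of the 16 probe sets (Phka1, both M98826 probe sets of Phkg1, and L11694_at and U20195_s_at of Pgm1) the 5 low-ratio arrays all read below the other 7 TA arrays, where 8.91% of all tested probe sets did so. For 2 (Ppp1r1a J05592_g_at and Gsk3b X73653_at) they all read above, where 4.52% of all tested did so, and for 9 the ranges overlapped. The log2 difference of low-ratio from other TA arrays was -4.66 for U20195_s_at, -3.71 for Phka1, -3.65 for M98826mRNA_g_at, -3.50 for M98826mRNA_at and -1.92 for L11694_at, beside 0.91 for J05592_g_at and 1.08 for X73653_at. Within Pgm1, rc_AA894296_at differed by 0.49 between the same arrays, and within Phkg1, X07320_at by -0.66. The part of RNA quality or of probe position in this was not tested.

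Leaving the low-ratio arrays out left TA_6h samples 1 and 2 and, for TA_1h sample 2, array 2a alone. It raised the count of probe sets called lower in EOM to 13 of 16 against TA_6h and 14 of 16 against TA_1h, from 7 and 8 of the 9 genes. These counts take in Phkg1 M98826mRNA_at, under the floor on every EOM array, and were 12 and 13 over the other 15 probe sets. The background of lower calls was then 25.1% and 25.4%, and that of higher calls 20.7% and 21.5%, with 0 of the 16 called higher. A fit on all samples with a term for the low-ratio arrays gave 13 lower and 0 higher against TA_6h, beside 25.5% and 20.8% of all tested, and 10 lower and 0 higher against TA_1h, beside 23.8% and 21.5%. M98826mRNA_at was again among the lower ones (12 and 9 without it), and arrays 2a and 2b, which share a number, entered that fit as separate samples. With the low-ratio TA arrays alone, 9 were called lower and 3 higher against TA_6h (samples 3 and 4), beside 25.6% and 23.9% of all tested. The 3 were Phka1, M98826mRNA_g_at and U20195_s_at. Both probe sets of Ppp1r1a, both of Gsk3b, Gaa, Pgm1 rc_AA894296_at and Pygm L10669_at were called lower against TA_6h with either set of arrays.

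**Figure D3:**
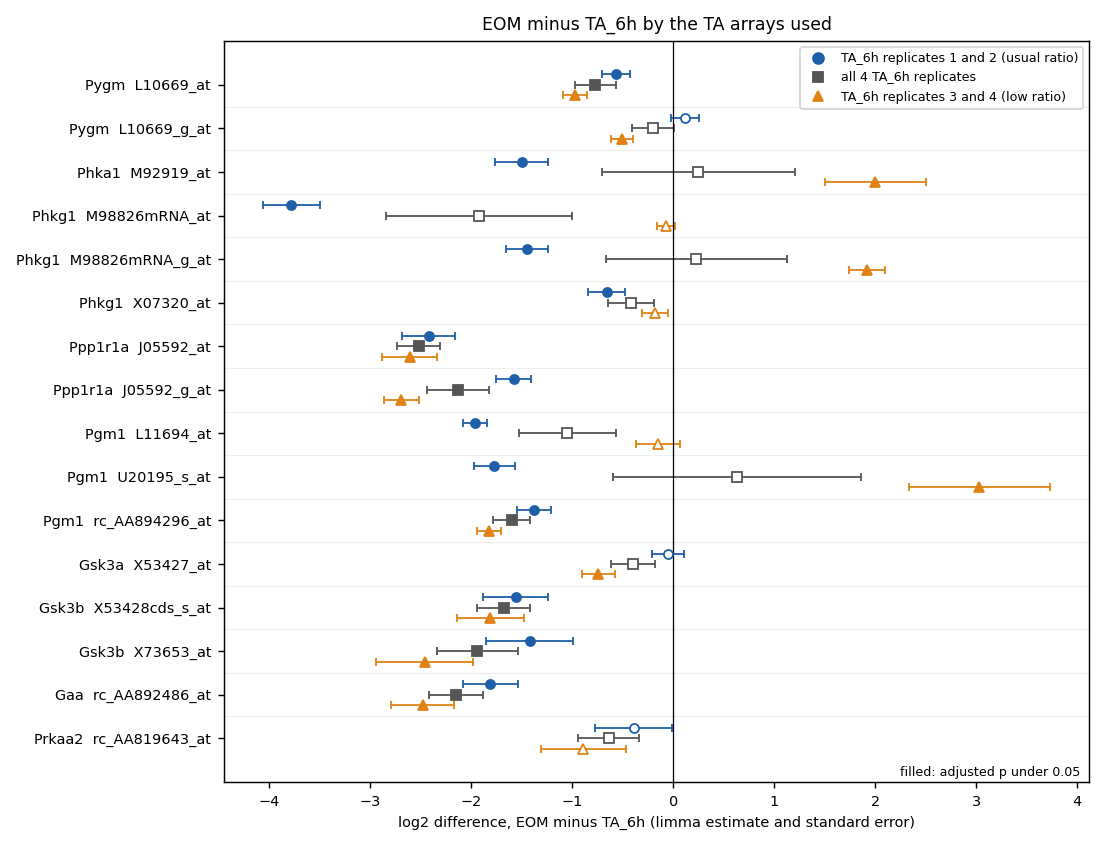
Log2 difference of EOM from TA_6h for each glycogen probe set (limma estimate and standard error) with TA_6h samples 1 and 2, whose beta-actin ratio is usual (circles), with all 4 samples (squares), and with the low-ratio samples 3 and 4 (triangles); filled symbols have an adjusted p under 0.05. Phka1, Phkg1 M98826mRNA_g_at and Pgm1 U20195_s_at lie at -1.50, -1.45 and -1.77 for circles and at 2.0, 1.92 and 3.03 for triangles, whereas the 3 symbols of Ppp1r1a, Gsk3b, Gaa and Pgm1 rc_AA894296_at stay on the left.

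Arrays that carry the same number show how far this reaches within a sample. The median absolute log2 difference of the 16 probe sets between the arrays of a number was 0.22, 0.23, 0.22 and 0.22 for TA_6h samples 1 to 4 and 0.10 for TA_1h sample 1. For TA_1h sample 2, where array 2a has a usual ratio and 2b a low one, it was 1.07, beside 0.52 over all probe sets tested. There 10 of the 16 differed by more than 2-fold, as did 24.7% of all tested, and the widest difference was 4.68 for Phkg1 M98826mRNA_g_at. Among the TA_6h pairs the widest was 1.5, for Pgm1 U20195_s_at in sample 4. Array 2b makes up 1 of the 2 arrays of 1 of only 2 TA_1h samples, so over all arrays it enters every comparison with TA_1h.

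**Figure D4:**
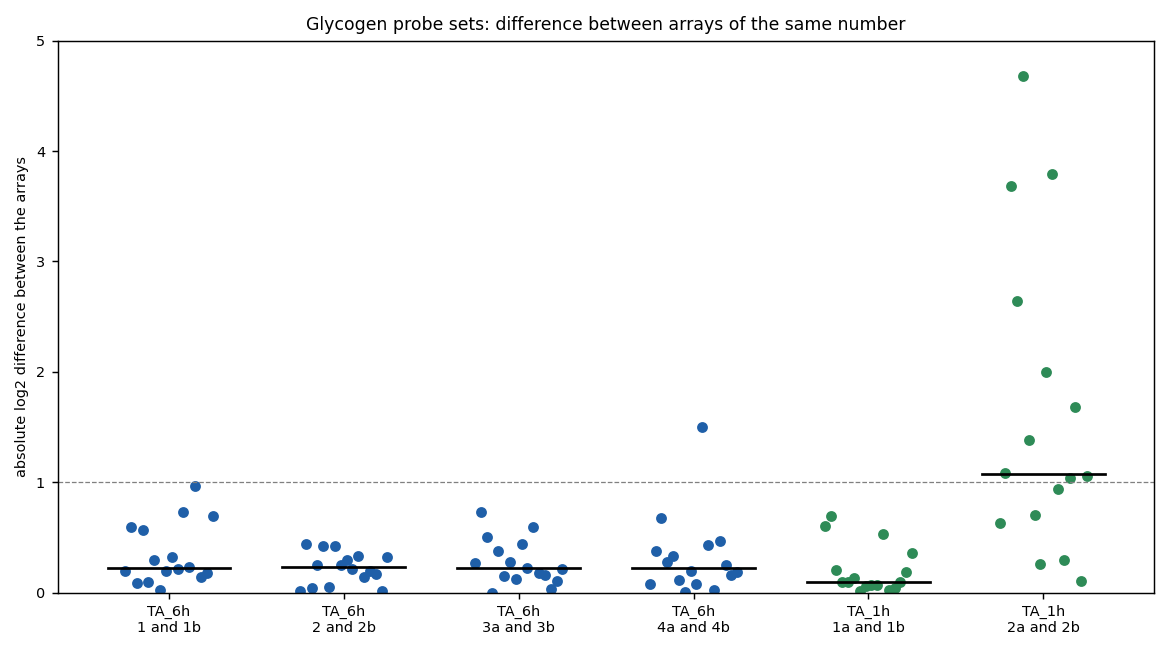
Absolute log2 difference between the 2 arrays of each numbered TA sample for the 16 glycogen probe sets (points, floored values), with the median as a bar and a dashed line at 2-fold. The medians lie between 0.10 and 0.23 for 5 samples and at 1.07 for TA_1h sample 2, whose points reach 4.68.

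Between collection times within TA, no glycogen probe set was called. Limma called 0 of 16 between TA_6h and TA_1h, as it did 0% of all tested lower and 0% higher, and 0 of 16 had an unadjusted p under 0.05. The differences, TA_6h minus TA_1h, ran from -1.24 ± 1.51 for Pgm1 U20195_s_at to 0.41 ± 0.33 for Gaa, with a median of -0.11 over the 16 and 0.01 over all tested. Ppp1r1a stood at -0.07 ± 0.25 (J05592_at) and 0.03 ± 0.38 (J05592_g_at) and Pygm L10669_at at 0.06 ± 0.24. With 2 TA_1h samples, 1 of them holding a low-ratio array, these values do not show that the groups are alike.

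Markers of other cells and fibres differed between the muscles too. The 4 fast glycolytic markers (Myh4, Mybpc2, Eno3, Pvalb), which mark fibres that rely on glycogen, summed to 48394 to 51213 on EOM arrays, 69660.0 to 164474 on TA_6h arrays and 79654 to 159973 on TA_1h arrays, and 3 of the 4 were called lower in EOM against each TA group. Within TA these sums were 96836 to 164474 on low-ratio arrays and 69660.0 to 116794 on the others. The 3 nerve and Schwann cell markers on the array summed to 7138 to 11750.0 in EOM, 651 to 1599 in TA_6h and 1173 to 1922 in TA_1h, and all 3 were called higher in EOM. The 2 macrophage markers summed to 7292 to 10402, 1051 to 2143 and 1224 to 1775 in the same order, and the 4 fibroblast markers to 49960.0 to 62679, 30696 to 51282 and 21327 to 32678, of which 2 were called higher in EOM against TA_6h and 3 against TA_1h. The 3 adipocyte markers summed to 4632 to 5766 in EOM, 914 to 2373 in TA_6h and 1387 to 2839 in TA_1h, and 2 were called higher in EOM against TA_6h and 1 against TA_1h. Among them Plin1 lay below 0 on every EOM array (-207.7 to -32.6) and read 34.9 to 141.1 in TA_6h and 52.4 to 119.4 in TA_1h. Of the 3 smooth muscle markers 1 was called lower and 1 higher in EOM against TA_6h, and 0 lower and 1 higher against TA_1h. Of the 2 endothelial markers 1 was called higher against TA_6h and 0 against TA_1h. The liver marker Alb was called higher against both, at 299 to 354 in EOM against 31.4 to 190.4 in TA_6h and 40.8 to 156.5 in TA_1h. The part of these cells and fibres in the glycogen results was not tested, and in whole muscle fewer cells of a type and less RNA per cell cannot be told apart.

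Calls in the rest of the pathway ran both ways. Of 64 further genes listed, 38 were on the array with 69 probe sets, and 60 probe sets were tested. Against TA_6h 15 (25%) were called lower in EOM and 11 (18.3%) higher, near the 25.3% and 21.9% of all tested, with a median log2 difference of 0.06. Against TA_1h 12 (20%) were called lower and 5 (8.33%) higher, where 19.5% and 17.7% of all tested were, with a median of -0.08. Without the low-ratio arrays 18 (30%) were called lower and 10 (16.7%) higher against TA_6h, beside 25.1% and 20.7% of all tested. Against TA_1h the counts were then 17 (28.3%) and 9 (15%), beside 25.4% and 21.5%. In 4 of the probe sets called lower against both TA groups (Irs2 AF050159_at, Pde4b J04563_at, Pde4d L27059_s_at and Phkg2 M73808mRNA_at) every EOM array was under the floor. They were tested only because TA arrays passed it. Over the other probe sets 11 and 8 were called lower with all arrays, and 15 and 14 without the low-ratio arrays.

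In the adrenaline and cyclic AMP arm, 8 of 21 probe sets (38.1%) were called lower against TA_6h, beside 25.3% of all tested. Against TA_1h 6 (28.6%) were, beside 19.5%. Called higher were 2 (9.52%) and 1 (4.76%), beside 21.9% and 17.7% of all tested. Both lower counts take in Pde4b J04563_at and Pde4d L27059_s_at, which were tested only because TA arrays passed the floor. Without the low-ratio arrays 6 (28.6%) were called lower against TA_6h and 7 (33.3%) against TA_1h, beside 25.1% and 25.4% of all tested. Called higher were then 2 (9.52%) against each TA group, beside 20.7% and 21.5%. L27059_s_at then lost both calls (-0.55, adjusted p = 0.28, and -0.74, adjusted p = 0.16), while J04563_at kept both. Pde4a, Pde4b and Pde4d encode phosphodiesterases that break down cyclic AMP. Pde4a M25348_s_at read -137.1 to 92.7 on EOM arrays, 284 to 1302 on TA_6h arrays and 415 to 803 on TA_1h arrays, a difference of -3.31 ± 0.36 from TA_6h (adjusted p = 5.6e-05) and -3.35 ± 0.44 from TA_1h (adjusted p = 0.00028), with 1 EOM array above the floor. Pde4a M26715_at was lower by -2.80 ± 0.66 and -2.63 ± 0.80 (adjusted p = 0.0061 and 0.027). The M26715_at call, without the low-ratio arrays, was lost against TA_6h (-2.45, adjusted p = 0.066) and kept against TA_1h (-2.70, adjusted p = 0.047). Pde4b rc_AA799729_at was lower by -1.98 ± 0.30 against TA_6h (adjusted p = 0.00045) and -1.28 ± 0.36 against TA_1h (adjusted p = 0.02), the second of which was lost without the low-ratio arrays (-1.03, adjusted p = 0.11). On EOM arrays rc_AA799729_at read 39.9 to 106.0, with 2 of them above the floor. Of the other Pde4b probe sets, rc_AA799729_g_at was called against TA_6h alone (-1.18, adjusted p = 0.027) and M25350_s_at was called against neither (-0.79 from TA_6h, adjusted p = 0.17; from here on, 1 value given for an uncalled probe set is that against TA_6h). Pde4b J04563_at read 82.8 to 493.4 on TA_6h arrays and Pde4d L27059_s_at 51.1 to 227.1, with EOM under the floor in both. The other Pde4d probe set, L27060_at, was not called (-0.94, adjusted p = 0.14).

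Protein kinase A itself was read both ways. The catalytic subunit gene Prkaca, through X57986mRNA_r_at, was lower in EOM by -1.45 ± 0.24 against TA_6h (adjusted p = 0.00086), but X57986mRNA_s_at of the same gene stood at 0.06 ± 0.19 (adjusted p = 0.83). Prkar1a, a regulatory subunit, was higher at 3469 to 3614 on EOM arrays against 1299 to 1773 in TA_6h and 1007 to 1937 in TA_1h, a difference of 1.27 ± 0.17 from TA_6h (adjusted p = 0.00026) and 1.22 ± 0.21 from TA_1h (adjusted p = 0.0016).

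In the insulin arm and glucose entry, 5 of 24 probe sets (20.8%) were called lower and 5 higher against TA_6h over all arrays. Against TA_1h 4 (16.7%) and 3 (12.5%) were, each share below that of all tested. The lower counts take in Irs2 AF050159_at, under the floor on every EOM array. Without the low-ratio arrays 7 (29.2%) were called lower and 5 (20.8%) higher against TA_6h, beside 25.1% and 20.7% of all tested. Against TA_1h 6 (25%) and 5 (20.8%) then were, beside 25.4% and 21.5%. Both Akt2 probe sets, not called over all arrays, were then called lower against both TA groups (-1.49 and -1.71 from TA_6h, adjusted p = 0.0015 and 0.0018). Slc2a4, the insulin-responsive glucose transporter GLUT4, was lower through D28561_s_at at 4359 to 5060.4 on EOM arrays, against 4571 to 16542 in TA_6h and 9351 to 11127 in TA_1h (-1.10 ± 0.26, adjusted p = 0.0067, and -1.09 ± 0.32, adjusted p = 0.023). The other Slc2a4 probe set, rc_AA799760_s_at, was called against TA_6h (-1.55, adjusted p = 0.006) and not against TA_1h (-1.06, adjusted p = 0.087). Without the low-ratio arrays rc_AA799760_s_at was called lower against TA_1h as well (-1.09, adjusted p = 0.0048). Hk1 and Hk2 encode hexokinases, which trap glucose in the cell. Hk2 D26393exon_s_at was lower by -0.72 ± 0.20 against TA_6h (adjusted p = 0.016) and -0.75 ± 0.25 against TA_1h (adjusted p = 0.039), the second of which was lost without the low-ratio arrays (-0.41, adjusted p = 0.07), and Hk2 M68971_at was not called (0.85 ± 0.41, adjusted p = 0.11). Hk1 rc_AI012593_at was higher by 1.28 ± 0.19 against TA_6h (adjusted p = 0.00037), and Hk1 U27319exon_at was not called (0.80, adjusted p = 0.17). Irs2 AF050159_at, an insulin receptor substrate, lay below 0 on every EOM array and at 192 to 813 on TA_6h arrays, while Irs2 AF087674_at and U89743_at were not called (1.97, adjusted p = 0.059, and 0.06, adjusted p = 0.87). Csnk2b, the regulatory subunit of casein kinase 2, which primes the synthase for glycogen synthase kinase 3, was lower by -2.14 ± 0.23 (adjusted p = 4.7e-05) and -1.86 ± 0.28 (adjusted p = 0.00062). Csnk2a1, another gene of this kinase, went the other way against TA_6h. It was called higher through L15618_at (0.60, adjusted p = 0.025), rc_AA800210_at (0.61, adjusted p = 0.017) and rc_AI072089_at (1.40, adjusted p = 0.022). Against TA_1h no Csnk2a1 probe set was called over all arrays (adjusted p = 0.33, 0.072 and 0.19). Without the low-ratio arrays rc_AA800210_at was called higher against TA_1h (0.43, adjusted p = 0.036), and rc_AI072089_at lost its call against TA_6h (0.76, adjusted p = 0.19). Pik3r1 D64045_s_at, a regulatory subunit of phosphoinositide 3-kinase, was higher by 1.18 ± 0.18 (adjusted p = 0.00054) and 1.28 ± 0.22 (adjusted p = 0.0016), and Pik3r1 U50412_at was not called (0.00, adjusted p = 1.0).

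The smaller lists held 2 to 5 tested probe sets each. Prkaa1, the alpha 1 subunit of AMP-activated protein kinase, was lower in EOM by -1.08 ± 0.21 against TA_6h (adjusted p = 0.0023) and -1.32 ± 0.26 against TA_1h (adjusted p = 0.003), and the other 2 subunit probe sets were not called. Prkaa1 read 8.8 to 65.8 on EOM arrays, with 2 of them above the floor, 18.4 to 227.1 on TA_6h arrays and 110.3 to 211.5 on TA_1h arrays. The size of its difference therefore depends on the floor. Phkg2, the gamma subunit of phosphorylase kinase known from liver and testis, was under the floor on every EOM array and read 61.5 to 327.6 on TA_6h arrays. Calm2, a calmodulin gene listed with phosphorylase kinase because calmodulin is its delta subunit, was called higher against TA_6h (0.46, adjusted p = 0.029) and not against TA_1h (-0.39, adjusted p = 0.12). Ppp1cb, a catalytic subunit of protein phosphatase 1, was higher through S78218_g_at by 1.37 ± 0.24 (adjusted p = 0.0011) and 1.58 ± 0.29 (adjusted p = 0.0022), whereas S78218_at of the same gene stood at 0.06 ± 0.57 and -0.73 ± 0.69 (adjusted p = 0.94 and 0.44) and was called lower without the low-ratio arrays (-0.94, adjusted p = 0.0014, and -1.12, adjusted p = 0.00056). Ppp1cc, another catalytic subunit, was called higher against TA_6h (0.82, adjusted p = 0.0027) and not against TA_1h (0.55, adjusted p = 0.057). Without the low-ratio arrays Ppp1cc was called higher against TA_1h as well (0.57, adjusted p = 0.0076). Among the chain enzymes, Pygb rc_AA800190_at, brain glycogen phosphorylase, was called higher against TA_6h (1.37, adjusted p = 0.04) and not against TA_1h (0.78, adjusted p = 0.33). Its call against TA_6h was lost without the low-ratio arrays (1.56, adjusted p = 0.11). The other tested Pygb probe set, rc_AA800190_g_at, was called against neither TA group (-0.05, adjusted p = 0.89, and 0.25, adjusted p = 0.60). Between TA_6h and TA_1h limma called 0 of the 60, and 2 had an unadjusted p under 0.05.

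**Figure D5:**
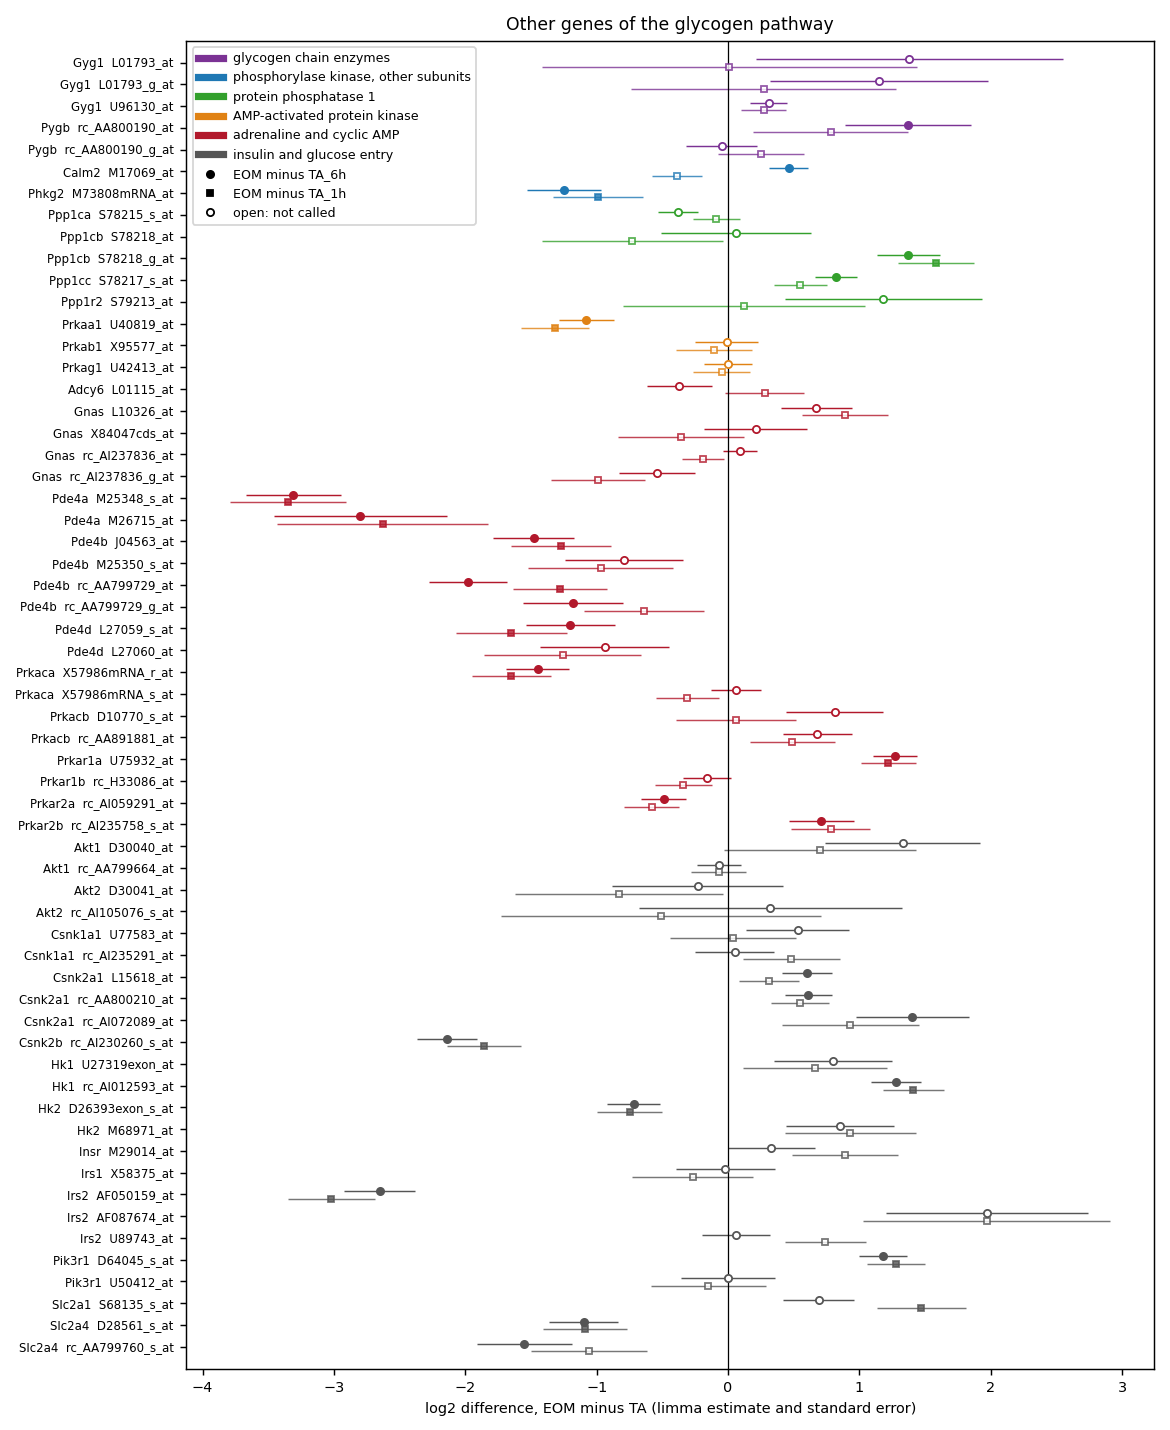
Log2 difference of EOM from TA_6h (circles) and TA_1h (squares) for the 60 tested probe sets of other pathway genes, coloured by list, as the limma estimate with its standard error; filled symbols have an adjusted p under 0.05. Filled symbols lie on both sides of 0, from -3.35 for Pde4a M25348_s_at to 1.58 for Ppp1cb S78218_g_at.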

How the data were processed

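Expression was read on 16 single-colour arrays. The authors deposited 1 linear intensity per probe set and array; each array has a common trimmed mean (801.1 to 801.8), and how probes were combined into probe sets is not stated in the labels or headers. Deposited intensities were floored at their 25th percentile and taken to log2. After removal of 59 controls, a probe set was kept where 4 or more arrays exceeded the floor, which left 7640. Limma 3.58.1 (R 4.3.3; lmFit, eBayes) fitted the 3 groups together (residual degrees of freedom 7, prior 2.83), and Benjamini-Hochberg adjustment ran across the whole table. Every adjusted p and standard error given for a probe set is limma's. Tested on simulated data for EOM against TA_6h (7640 probe sets, 5 runs), the fit recovered 45.5% of log2 changes of 1, 87.4% of 2 and 96% of 3, and 5.18% of its calls were false. The simulation changed only a small part of the probe sets, whereas in the data 25.3% were called lower and 21.9% higher. It drew noise independently for each sample and probe set, with no shift shared by the low-ratio arrays. Its rates hold for that setting and need not hold for these data. The number of arrays limits the precision.

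The members and all lists were chosen with earlier results of these data known, so no test was made over a list. Of the pathway lists, genes with a probe set called against both TA groups in 1 direction are named, with their other tested probe sets. Gyg1, Ppp1cc, Calm2, Csnk2a1, Pygb and Akt2 were added after their values were seen. Symbols come from GEO's platform annotation, and all 16 matched current gene entries. Samples sharing a number across groups were not paired, and the labels give no pairing. Correlations of their deviations from the group means were -0.418 to 0.389, and 0.021 to 0.105 between EOM and TA_6h. Those with TA_1h cannot decide on pairing, because its 2 samples deviate from their mean by equal amounts in opposite directions. Alternatives numbered 27. Promoters were matched for 9 of 10 genes; Ppp1r1a is only named. Figures were drawn with matplotlib 3.10.9.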

Additional observations from a re-analysis of the deposited data

Results flagged for a closer look

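Within the TA_6h group, Gsk3b X53428cds_s_at stood apart in sample 2, whose mean of 8.30 on the log2 scale (intensities 337 and 295 on arrays 2 and 2b) lay far below the next of the other 3 samples for the spread of the group. It was the only 1 of 31 groups of 4 samples to do so, and chance alone marks about 1 in 20 such groups. Array 1 of sample 1 read 315, between the 2 arrays of sample 2, but was averaged with array 1b at 613, a joining that was itself an inference. EOM stayed lower in X53428cds_s_at with sample 2 left out.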

How the results depend on the processing

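Both Ppp1r1a probe sets, Pgm1 rc_AA894296_at, Gsk3b X53428cds_s_at and Gaa kept their direction and their call against TA_6h and TA_1h under all 27 alternatives. The number of glycogen probe sets called lower against TA_6h was 13 without the low-ratio arrays and 13 with a term for them, beside 25.1% and 25.5% of all tested. Against TA_1h it was 14 without them, beside 25.4%. Each of these counts takes in Phkg1 M98826mRNA_at, under the floor on every EOM array. With low-ratio arrays alone as TA, 3 were called higher against TA_6h, beside 23.9% of all tested. TA_1h is then array 2b alone, 1 sample assumed to vary like the other groups. Leaving out 1 sample gave 7 to 8 lower against TA_6h and 6 to 8 against TA_1h. Directions turned against TA_6h without the low-ratio arrays and with the term for them: Phka1 (-1.50 and -1.63), Phkg1 M98826mRNA_g_at (-1.45 and -1.77) and Pgm1 U20195_s_at (-1.77 and -1.64). Against TA_1h, M98826mRNA_g_at turned to -1.14 without these arrays, and on array 2b alone Phka1 turned to 2.61, X07320_at to 0.76 and, between TA_6h and TA_1h, M98826mRNA_g_at to 1.88. The cause was not tested. Against TA_1h, Pygm L10669_at and Pgm1 L11694_at each lost their call under 10 of 27 alternatives, including the loss of any EOM sample or of TA_1h sample 1 (-0.37, adjusted p = 0.37, and -1.15, adjusted p = 0.30). Prkaa2 was called without EOM sample 4 (-0.84, adjusted p = 0.048, and -1.05, adjusted p = 0.047). With the number as a replicate block, 7 members were lower against TA_6h and 6 against TA_1h, where Pygm L10669_at (-0.79) and Pgm1 L11694_at (-1.24) lost their call. Quantile normalization moved the median difference of all probe sets from TA_6h to 0.03, against -0.11 as reported. Of the other pathway probe sets, those called lower numbered 7 against TA_6h and 5 against TA_1h when all 16 arrays had to pass the floor, which left 39 tested, and 7 to 12 against TA_1h with 1 sample left out, the fewest without TA_1h sample 2. Those called higher against TA_6h were 17 with arrays scaled to the same median and 17 with low-ratio TA arrays alone. Against TA_1h they were 9 after quantile normalization, 9 after median scaling, 8 for log2(value + 50), 8 with no filter, 10 with each array as its own sample, 9 without the low-ratio arrays, 13 with these alone, 10 with the term, 8 with 2 groups in the fit and 4 to 8 with 1 sample left out, the most without TA_6h sample 4. Between TA_6h and TA_1h, low-ratio arrays alone gave 4 lower and 2 higher.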

Other observations

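Several further genes of glycogen metabolism lay too low to be tested. Gys2, the liver glycogen synthase, read 12.0 to 33.9 on EOM arrays, 14 to 35.3 on TA_6h arrays and 25.1 to 49.0 on TA_1h arrays, under the floor on all of them. Ppp1r3b, a subunit that targets protein phosphatase 1 to glycogen, read -60.7 to -47.9 in EOM, 7.2 to 27.8 in TA_6h and 7.1 to 22.1 in TA_1h. Pygl, liver glycogen phosphorylase, passed the floor on 1 EOM array, with a range of -190.0 to 124.8 in EOM beside 8.1 to 63.0 in TA_6h and 8.1 to 27.2 in TA_1h.

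Gyg1, glycogenin, the protein primer on which a glycogen chain starts, had 3 tested probe sets. U96130_at read 6481 to 7311 in EOM, 4897.5 to 6569 in TA_6h and 5001 to 6073 in TA_1h, and its difference of 0.31 ± 0.14 from TA_6h was not called (adjusted p = 0.087). L01793_at read 2843 to 3826 in EOM, 158 to 6774 in TA_6h and 423.5 to 7235 in TA_1h. Its difference from TA_6h was 1.38 ± 1.17 over all arrays (adjusted p = 0.35) and -1.04 without the low-ratio TA arrays (adjusted p = 0.0051). L01793_g_at stood at 1.15 over all arrays (adjusted p = 0.28) and at -0.52 without them (adjusted p = 0.021).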
